A study of Mus musculus with 22 samples.

Results

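The comparison concerns embryoid bodies between D18 and D12 of differentiation with vehicle only: the D18 libraries 1 and 2 were set against the D12 libraries 1 and 2, which makes 4 of the 22 libraries of the series. Sample titles decided the choice: D12 and D18 were taken as days, and C as DMSO. Embryoid bodies are floating aggregates of embryonic stem (ES) cells that differentiate without directed cues into a mixture of germ layer derivatives. All libraries came from the mouse ES line J1, and both the D18 and the D12 group received 0.1% DMSO, so the vehicle is shared and an untreated embryoid body was not part of the comparison. The series as a whole asked how TBBPA (tetrabromobisphenol A, a brominated flame retardant) alters expression along this course. It holds embryoid bodies with 10 nM TBBPA, 100 nM TBBPA or DMSO at D4, D9, D12, D18 and D28, and untreated ES cells. RNA of whole embryoid bodies was isolated using Trizol, then RNeasy Plus columns, and sequenced at BGI. The labels do not state how many bodies entered an extraction or whether replicates came from separate cultures. P-values therefore measure the spread between these libraries, which may be technical.

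Every library carried the cell type label mESC, whatever its day. The pluripotency regulator Pou5f1 stood at 129.6 and 142 CPM at D18, at 191 and 183 CPM at D12 and at 1237 and 1403 CPM in the ES libraries (CPM, the gene's count relative to its library's total, scaled with edgeR's TMM factors). The 4 libraries held 18530751 to 18817354 expected counts and 17473 to 17640 listed genes. Replicates of a day differed by more than counting noise, with a mean chi-square per gene of 2.31 within D18 and 2.09 within D12, against 43.1 to 44.3 for a D18 library paired with a D12 library. The ES pair, which enters the estimate of spread, differed most, at 22.5. Because RNA came from whole bodies, fewer cells of a type and less RNA per cell cannot be told apart in any result given here.

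As background, the first days of embryoid body culture are known for gastrulation-like steps, and an outer visceral endoderm layer and blood islands resembling those of the yolk sac form early. Neurons, cardiac and skeletal muscle, connective tissue and surface epithelium mature later. The test was edgeR's quasi-likelihood test with Benjamini-Hochberg adjustment, with the spread taken from all 12 control libraries and n = 2 for each day. Of the 16203 genes tested, 6110 differed between D18 and D12 at an adjusted p under 0.05, which is 37.7% of them. There were 3347 rises (20.7%) and 2763 falls (17.1%), and the median log2 change of all tested genes was 0.00. Large changes were mostly rises: 552 genes rose and 85 fell at least 4-fold, and 1750 genes (10.8%) changed at least 2-fold in either direction. These counts changed with the method and with the libraries used. DESeq2 in place of edgeR gave 4872 changed genes, of which 2721 rose. With limma on log2(FPKM + 0.1) it was 4999, of which 2977 rose. With library size alone as the scaling, 3690 rose and 2246 fell. Without the ES libraries 8653 genes changed, of which 4458 rose, and with only the libraries compared 8608 changed, of which 4392 rose. The count of falls changed too. It was 4195 without the ES libraries and 1726 to 1778 when any 1 of the 4 compared libraries was left out.

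Among the 12 largest rises were genes of glia, surface epithelium, connective tissue and muscle. Gfap, the intermediate filament protein of astrocytes, reached 9.30 and 10.5 CPM at D18, against 0.102 and 0.0510 CPM at D12. Its ratio was 130-fold, with a 95% counting interval of 44.1 to 633, since the D12 libraries held 3 reads in all. S100a14, a calcium-binding protein of epithelia, had 11.1 and 12.5 CPM at D18, against 0.0508 and 0.204 CPM at D12 (log2 change 6.46 ± 0.29 (SE), adjusted p = 1.17e-09). For both genes the D18 libraries lay close to each other. The rule for choosing them required that the days not overlap. Mgp, an extracellular inhibitor of calcification, had 18.6 and 17.4 CPM at D18, against 0.254 and 0.664 CPM at D12 (log2 change 5.27 ± 0.23 (SE), adjusted p = 6.17e-09). The days did not overlap for Mgp, which the same rule required. Prelp, a leucine-rich proteoglycan that anchors basement membranes to connective tissue, had 16.5 and 15.99 CPM at D18, against 0.762 and 0.613 CPM at D12 (log2 change 4.55 ± 0.20 (SE), adjusted p = 1.08e-09), and it too was low in both D12 libraries.

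Among the 12 largest falls were embryonic globins and genes of secretory or absorptive epithelia. Tdo2, an enzyme of tryptophan breakdown in liver and decidua, had 0.503 and 0.546 CPM at D18, against 7.46 and 9.54 CPM at D12 (log2 change -4.00 ± 0.28 (SE), adjusted p = 3.89e-07). Lgals2, a galectin, had 1.31 and 1.69 CPM at D18, against 8.89 and 9.03 CPM at D12 (log2 change -2.57 ± 0.20 (SE), adjusted p = 5.96e-07). Cdhr2, a cadherin of brush border microvilli, had 1.31 and 1.84 CPM at D18, against 8.73 and 9.54 CPM at D12 (log2 change -2.53 ± 0.22 (SE), adjusted p = 8.90e-07). In all of them the D12 libraries were the high pair and no value of a D18 library reached them, which the rule for choosing them required. Hapln1, the link protein that ties proteoglycans to hyaluronan, fell by 2.70 on the log2 scale, with 1.31 and 0.944 CPM at D18, against 7.67 and 6.99 CPM at D12.

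**Figure D1:**
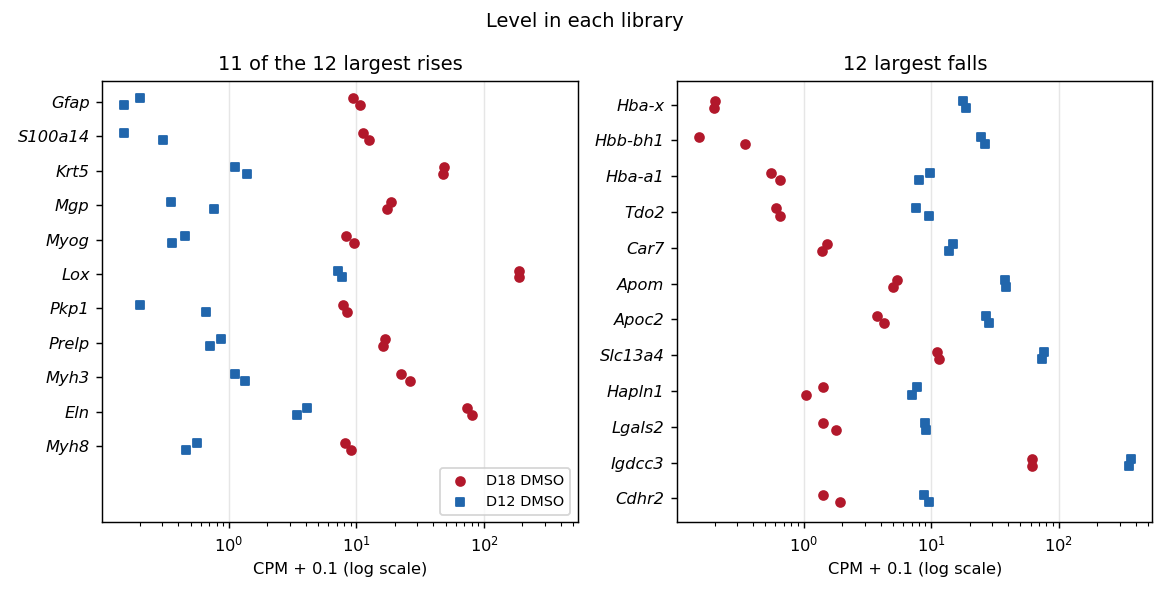
Level of 11 of the 12 largest rises and of the 12 largest falls in each library (horizontal axis: CPM + 0.1, log scale; red circles, the D18 DMSO libraries; blue squares, the D12 DMSO libraries). The days do not overlap for any gene shown, which the rule for choosing them required, and libraries of a day lie close together except where a D12 value is near 0.

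Ranked by change in CPM, matrix genes made up most of the largest gains. CPM is a share of the library, and this ranking favours long and abundant transcripts. The 8 genes with the largest gain in CPM among those that passed were Col1a1, Col1a2, Col3a1, Col4a1, Col4a2 and Lama1, all of the matrix, and Igf2 and Tuba1a. Col4a1, a chain of basement membrane collagen, averaged 3766 ± 97.9 CPM at D18 and 2163 ± 72.7 CPM at D12 (SD, n = 2 each). Igf2, the imprinted fetal growth factor, averaged 3966 ± 68.3 CPM at D18 and 2669 ± 76.5 CPM at D12 (SD, n = 2 each). The 8 largest losses were Slc2a3, Gapdh, Mest, Hsp90ab1, Pkm, Hnrnpa1, Fn1 and Apoe, of which Fn1, fibronectin, is a matrix gene too. Slc2a3, a glucose transporter, averaged 999.6 ± 0.916 CPM at D18 and 1795 ± 14.2 CPM at D12 (SD, n = 2 each), and Apoe, a lipoprotein component, averaged 338 ± 7.69 CPM at D18 and 889.7 ± 41.8 CPM at D12 (SD, n = 2 each). The days did not overlap for any of these 4 genes. Here and below, genes were mostly named because they passed or had a small p, so lack of overlap adds no support. The share of all tested genes without overlap is not given here.

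Across 71 gene lists with 1547 members, 1442 members were tested, of which 504 rose and 370 fell. A list is read here against the shares over all genes, 20.7% higher and 17.1% lower. Lists and members were chosen with earlier results of these data known. An excess over these shares may therefore reflect that choice in part, and it is a description. In some lists few members changed, as for placenta and trophoblast (1 rose and 2 fell of 19 tested). Of 30 single cell type markers, 15 rose, 10 fell and 5 did not pass the test.

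**Figure D2:**
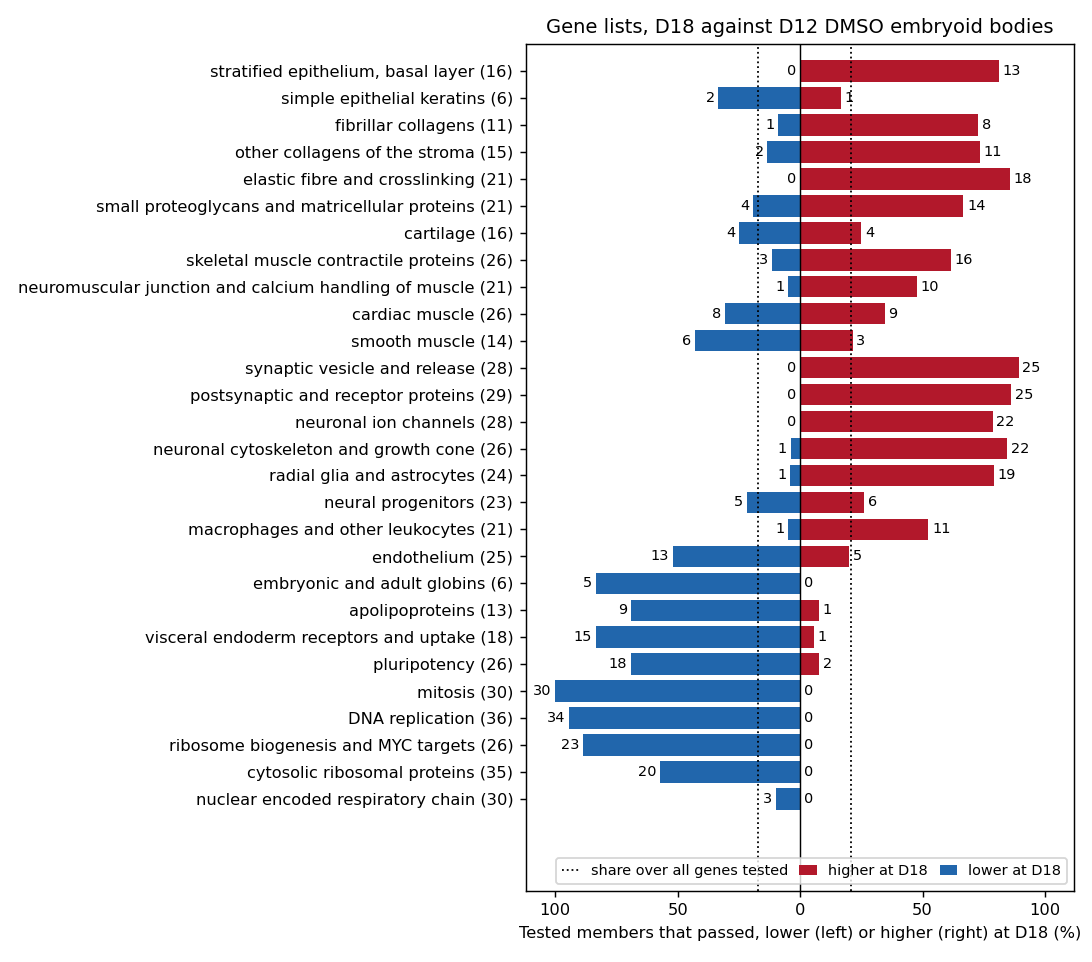
Share of the tested members of 28 gene lists that were higher (right, red) or lower (left, blue) at D18 than at D12, in percent, with the number of genes at the bar ends and the number tested in brackets. Dotted lines mark the shares over all genes tested, 20.7% and 17.1%; synaptic, glial, elastic fibre and basal epithelial lists lie far to the right, and mitosis, DNA replication and globins far to the left.

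Genes of stratified epithelium rose between these days. Of 16 tested genes of the basal layer of stratified epithelia, 13 rose, 0 fell and 3 did not pass, with a list median of 1.49 on the log2 scale. Krt15, a keratin of basal keratinocytes, had 35.1 and 33.9 CPM at D18, against 1.98 and 1.74 CPM at D12 (log2 change 4.21 ± 0.13 (SE), adjusted p = 3.50e-11). Krt17, a keratin of skin appendages and stressed epidermis, had 13.8 and 12.3 CPM at D18, against 1.42 and 1.02 CPM at D12 (log2 change 3.41 ± 0.21 (SE), adjusted p = 2.20e-08). For both keratins the D12 values stood near 1 to 2 CPM and did not approach the D18 values. Trp63, the transcription factor that specifies stratified epithelium, was already present at D12 and rose less, with 13.8 and 15.8 CPM at D18, against 9.09 and 9.70 CPM at D12 (log2 change 0.66 ± 0.13 (SE), adjusted p = 0.00123). Pkp1, a plaque protein of desmosomes, had 7.80 and 8.34 CPM at D18, against 0.102 and 0.561 CPM at D12 (log2 change 4.58 ± 0.31 (SE), adjusted p = 7.29e-08). The D12 values of Pkp1 differed widely between the libraries, but both lay below the D18 values.

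Few genes of the upper epithelial layers passed. In the list of suprabasal and cornified envelope genes, 6 of 22 rose, 0 fell and 16 did not pass, and the median was 0.19, or 0.0177 with genes that lack reads on a day set to their bound. The 6 calls became 2 without D12 replicate 1 and 3 without D12 replicate 2 or D18 replicate 2. Krt6a, an inducible keratin of suprabasal cells, had 5.94 and 5.66 CPM in the D18 libraries, against 0 counts in both D12 libraries. That is at least 75.9-fold higher, taking 3 counts over the D12 pair as the floor. Krt4, a keratin of the esophagus and other moist epithelia, had 2.36 and 2.23 CPM at D18, against 0.102 and 0.0510 CPM at D12, a ratio of 30.1 with a counting interval of 9.98 to 149. Of 6 keratins of simple epithelium 2 fell and 1 rose. Krt8 had 392 and 387 CPM at D18, against 582 and 558 CPM at D12 (log2 change -0.55 ± 0.09 (SE), adjusted p = 0.000451), and its partner Krt18 had 368 and 370.1 CPM at D18, against 606 and 587 CPM at D12 (log2 change -0.69 ± 0.13 (SE), adjusted p = 0.00243). Krt19 did not pass, with 110.2 and 105 CPM at D18, against 108 and 100.2 CPM at D12, and the epithelial adhesion molecule Epcam did not pass either, with 129.7 and 130.2 CPM at D18, against 138 and 149 CPM at D12 (adjusted p = 0.283). The keratins Krt8 and Krt18 still exceeded the stratified ones in level at D18: Krt8 averaged 232 FPKM at D18 and 331 FPKM at D12 and Krt5, the main basal keratin, averaged 23.6 FPKM at D18 and 0.545 FPKM at D12.

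Most genes of connective tissue matrix rose. Of 15 tested stromal collagens other than the fibrillar ones, 11 rose and 2 fell, with a median of 1.69. Of 11 fibrillar collagens, 8 rose and 1 fell (median 0.66). The summed level of the fibrillar list was 5926 and 6267 CPM at D18 against 2613 and 2484 CPM at D12. Col1a2, a chain of the collagen of skin and bone, had 1146 and 1168 CPM at D18, against 358 and 347 CPM at D12 (log2 change 1.72 ± 0.09 (SE), adjusted p = 1.71e-08). The 3 main chains of collagen VI, which forms beaded filaments around cells, rose in parallel. Col6a1 had 239.7 and 244 CPM at D18, against 46.5 and 43.8 CPM at D12 (log2 change 2.42 ± 0.08 (SE), adjusted p = 6.26e-11). Col6a2 had 162 and 158 CPM at D18, against 21.9 and 19.4 CPM at D12 (log2 change 2.95 ± 0.09 (SE), adjusted p = 5.28e-11). Col6a3 had 88.4 and 88.9 CPM at D18, against 10.5 and 11.4 CPM at D12 (log2 change 3.02 ± 0.11 (SE), adjusted p = 1.52e-10). The collagen VI genes did not overlap between the days, and each pair of replicates was within a few CPM. The fibrillar gene that fell was Col2a1, the main cartilage collagen, with 159 and 168 CPM at D18, against 321 and 298 CPM at D12 (log2 change -0.92 ± 0.08 (SE), adjusted p = 6.16e-07). Col9a1, another cartilage collagen, fell too (8.95 and 8.59 CPM at D18, against 14.7 and 13.8 CPM at D12; log2 change -0.70 ± 0.17 (SE), adjusted p = 0.0048), a call that was lost without D12 replicate 1 (adjusted p = 0.0518) or D18 replicate 2 (adjusted p = 0.0522).

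The elastic fibre list had 18 rises, 0 falls and 3 members that did not pass among 21 tested, with a median of 0.99. Elastic fibres consist of crosslinked elastin on fibrillin microfibrils. Eln, elastin itself, had 73.03 and 79.9 CPM at D18, against 3.96 and 3.32 CPM at D12. Lox, the enzyme that crosslinks elastin and collagen, had 187 and 188 CPM at D18, against 7.01 and 7.61 CPM at D12. For both, the D12 libraries were uniformly low. Fbln5, which guides elastin onto microfibrils, had 20.97 and 23.7 CPM at D18, against 2.13 and 2.45 CPM at D12 (log2 change 3.28 ± 0.16 (SE), adjusted p = 3.41e-09). Fbn1, the main fibrillin, was abundant on both days and had 208 and 206 CPM at D18, against 91.05 and 94.8 CPM at D12 (log2 change 1.16 ± 0.07 (SE), adjusted p = 2.29e-08). Among 21 tested small proteoglycans and matricellular proteins 14 rose and 4 fell (median 1.10). Thbs2, a thrombospondin, had 122 and 116 CPM at D18, against 7.52 and 8.37 CPM at D12 (log2 change 3.91 ± 0.09 (SE), adjusted p = 3.87e-12). Ogn, osteoglycin, had 26.1 and 25.98 CPM at D18, against 1.27 and 1.53 CPM at D12 (log2 change 4.21 ± 0.17 (SE), adjusted p = 4.25e-10). Dcn, decorin, which binds collagen fibrils, had 88.6 and 87.7 CPM at D18, against 9.65 and 9.85 CPM at D12 (log2 change 3.18 ± 0.07 (SE), adjusted p = 1.62e-12), and Bgn, its relative biglycan, had 366 and 365 CPM at D18, against 79.6 and 81.7 CPM at D12 (log2 change 2.18 ± 0.06 (SE), adjusted p = 1.28e-11). All 4 were higher in both D18 libraries. Postn, periostin, was 1 of those that fell, with 269 and 272 CPM at D18, against 356 and 358 CPM at D12 (log2 change -0.40 ± 0.07 (SE), adjusted p = 0.000647), a call lost on log2(FPKM + 0.1) with limma (adjusted p = 0.275).

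Fibroblast and mesenchyme genes followed the matrix, with 16 rises and 2 falls among 23 tested (median 1.14). Pdgfra, the receptor of mesenchymal progenitors for platelet-derived growth factor, had 179 and 172 CPM at D18, against 65.9 and 62.9 CPM at D12 (log2 change 1.45 ± 0.07 (SE), adjusted p = 1.42e-09). Fap, a surface protease of activated fibroblasts, had 7.80 and 7.60 CPM at D18, against 0.812 and 0.664 CPM at D12 (log2 change 3.37 ± 0.24 (SE), adjusted p = 4.62e-07), and Thy1, found on fibroblasts and neurons, had 11.6 and 11.6 CPM at D18, against 1.93 and 1.74 CPM at D12 (log2 change 2.66 ± 0.16 (SE), adjusted p = 2.20e-08). The members that fell were the transcription factors Snai2, with 9.96 and 9.83 CPM at D18, against 14.2 and 15.3 CPM at D12 (log2 change -0.57 ± 0.14 (SE), adjusted p = 0.00481), and Prrx2, with 9.91 and 9.59 CPM at D18, against 14.8 and 12.7 CPM at D12 (log2 change -0.49 ± 0.13 (SE), adjusted p = 0.0101). The call of Snai2 was lost without D12 replicate 2, and that of Prrx2 without D12 replicate 1 or either D18 replicate. Matrix proteases and their inhibitors had 13 rises and 1 fall among 20 tested. The fall was Mmp9, a gelatinase of leukocytes and osteoclasts, with 1.46 and 1.54 CPM at D18, against 4.57 and 3.78 CPM at D12 (log2 change -1.47 ± 0.22 (SE), adjusted p = 0.000124), while the mesenchymal gelatinase Mmp2 rose, with 211 and 224 CPM at D18, against 128 and 128 CPM at D12 (log2 change 0.76 ± 0.07 (SE), adjusted p = 6.86e-07). Cartilage genes were evenly split, at 4 rises and 4 falls among 16 tested. Sox9, the master factor of chondrocytes that is also active in glia, rose, with 47.5 and 44.6 CPM at D18, against 26.96 and 25.7 CPM at D12 (log2 change 0.81 ± 0.14 (SE), adjusted p = 0.000557), a call lost on log2(FPKM + 0.1) with limma (adjusted p = 0.0715). Runx2, the master factor of osteoblasts, rose from low levels, with 9.10 and 8.24 CPM at D18, against 3.25 and 2.55 CPM at D12 (log2 change 1.58 ± 0.20 (SE), adjusted p = 2.72e-05). Pparg, the master factor of adipocytes, did not pass, with 4.07 and 3.53 CPM at D18, against 4.67 and 5.31 CPM at D12 (adjusted p = 0.143).

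Most contractile genes of skeletal muscle rose, several of them from near 0. Myogenesis is driven by basic helix-loop-helix factors, of which Myod1 commits cells and Myog starts their differentiation, and by fusion of myoblasts into fibres with embryonic and later perinatal myosins. Of 26 tested contractile genes of skeletal muscle 16 rose and 3 fell, with a median of 1.39. The neuromuscular junction and calcium handling list had 10 rises and 1 fall among 21 tested (median 1.07), and its 11 calls became 7 without D12 replicate 1 or D18 replicate 1. The myogenic transcription factors had 4 rises and 2 falls among 14 tested (median 0.12), and the 8 others did not pass. Myod1 had 3.92 and 5.26 CPM at D18, against 0.0508 and 0.0510 CPM at D12, which is 90.3-fold with a counting interval of 24.6 to 751. Myog had 8.20 and 9.44 CPM at D18, against 0.355 and 0.255 CPM at D12 (log2 change 4.82 ± 0.33 (SE), adjusted p = 8.19e-08). Mymk, the membrane protein that drives myoblast fusion and is listed in the tables as Tmem8c, had 2.11 and 2.43 CPM at D18, against 0 counts at D12, at least 29.8-fold higher. None of these 3 regulators overlapped between the days. Among the contractile genes, Myh8, the perinatal myosin heavy chain, had 7.997 and 8.89 CPM at D18, against 0.457 and 0.357 CPM at D12 (log2 change 4.35 ± 0.33 (SE), adjusted p = 2.60e-07). Myl1, a light chain of fast fibres, had 7.80 and 7.15 CPM at D18, against 0.305 and 0.204 CPM at D12 (log2 change 4.84 ± 0.26 (SE), adjusted p = 4.74e-08). Both were near silent at D12, whereas the muscle genes that follow were already detected, apart from Cav3. Actn2, the actinin of the Z disc, had 19.2 and 18.1 CPM at D18, against 6.50 and 7.25 CPM at D12 (log2 change 1.44 ± 0.14 (SE), adjusted p = 1.74e-06). Chrna1, the acetylcholine receptor subunit of muscle, had 4.38 and 3.43 CPM at D18, against 1.93 and 1.79 CPM at D12 (log2 change 1.07 ± 0.23 (SE), adjusted p = 0.00194). Cav3, the caveolin of muscle, had 0.754 and 0.894 CPM at D18, against 0 counts at D12, at least 10.8-fold higher.

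Not every muscle gene followed. Acta1, the skeletal actin that is also expressed in early heart, fell, with 19.5 and 19.1 CPM at D18, against 34.9 and 35.8 CPM at D12 (log2 change -0.87 ± 0.09 (SE), adjusted p = 2.80e-06). Tnni1, the troponin I of slow fibres, had 12.7 and 13.96 CPM at D18, against 17.4 and 16.997 CPM at D12 (log2 change -0.37 ± 0.12 (SE), adjusted p = 0.0222), a call lost whenever 1 of the 4 libraries was left out and with DESeq2 in place of edgeR (adjusted p = 0.137). Pax7, the factor of muscle and neural crest progenitors, had 1.86 and 1.89 CPM at D18, against 3.45 and 2.71 CPM at D12 (adjusted p = 0.0282), and its call was lost without D12 replicate 1 or either D18 replicate and with DESeq2 (adjusted p = 0.233). The promoter of Myog is printed because the gene is 1 of the 12 largest rises and factors of its own family bind the E box CANNTG. The RefSeq window of 250 bases before to 50 bases after its start (GRCm38.p6, chr1:134289754-134290053, plus strand) holds 2 E boxes, shown in capitals.
Myog promoter: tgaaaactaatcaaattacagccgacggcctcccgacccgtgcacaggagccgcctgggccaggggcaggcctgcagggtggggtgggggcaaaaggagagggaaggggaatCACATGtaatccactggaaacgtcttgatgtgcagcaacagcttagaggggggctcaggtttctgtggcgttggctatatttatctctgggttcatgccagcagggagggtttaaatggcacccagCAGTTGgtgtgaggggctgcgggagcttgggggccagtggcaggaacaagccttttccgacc
Of the 21 skeletal contractile genes with a promoter in the table, 19 (90.5%) held CANNTG on either strand, against 69.1% of the 12714 tested genes with a promoter and 72.3% of all 32851 promoters. The 21 include members that did not rise. In other lists the E box was in 6 of 6 basal epithelial genes (100%) and 16 of 25 mitosis genes (64%). It was in 19 of 28 DNA replication genes (67.9%) and 5 of 8 fibrillar collagens (62.5%). A TATA box, TATAAA on either strand, was in 8 of the 21 (38.1%), against 9.77% of tested genes and 13.6% of all promoters. A match describes the letters of the window and does not show binding.

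Heart and smooth muscle differed from skeletal muscle. Cardiac muscle genes were split, with 9 rises and 8 falls among 26 tested. Myh6, the atrial myosin heavy chain, had 69.4 and 64.6 CPM at D18, against 48.4 and 46.1 CPM at D12 (log2 change 0.50 ± 0.08 (SE), adjusted p = 0.000151), whereas Myh7, its ventricular and slow-fibre counterpart, had 39.03 and 40.3 CPM at D18, against 83.2 and 81.7 CPM at D12 (log2 change -1.06 ± 0.07 (SE), adjusted p = 7.41e-08). Myl3, a ventricular light chain, had 26.8 and 27.96 CPM at D18, against 11.7 and 11.7 CPM at D12 (log2 change 1.23 ± 0.12 (SE), adjusted p = 2.52e-06). Hand1 and Tbx20, transcription factors of the early heart, fell, with 14.8 and 13.4 CPM at D18, against 58.96 and 57.3 CPM at D12 for Hand1 (log2 change -2.04 ± 0.11 (SE), adjusted p = 5.91e-09) and 7.90 and 7.65 CPM at D18, against 20.4 and 23.99 CPM at D12 for Tbx20 (log2 change -1.51 ± 0.15 (SE), adjusted p = 2.87e-06). None of these cardiac genes overlapped between the days, which adds no support for genes named because they passed. In smooth muscle, 6 of 14 fell and 3 rose (median -0.40). Acta2, the smooth muscle actin, had 422 and 401 CPM at D18, against 843 and 853 CPM at D12 (log2 change -1.04 ± 0.08 (SE), adjusted p = 2.62e-07), and its partner Tagln had 229 and 233 CPM at D18, against 424 and 413 CPM at D12 (log2 change -0.86 ± 0.05 (SE), adjusted p = 2.74e-08). Itga8, an integrin, and Mylk, the myosin light chain kinase, rose in the same list, with 37.4 and 40.9 CPM at D18, against 13 and 13.4 CPM at D12 for Itga8 (log2 change 1.57 ± 0.09 (SE), adjusted p = 1.80e-08) and 38.5 and 34.4 CPM at D18, against 12.7 and 13.4 CPM at D12 for Mylk (log2 change 1.48 ± 0.09 (SE), adjusted p = 2.07e-08).

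Neuronal genes rose broadly. A young neuron forms processes, then synapses, and astrocytes follow neurons in the embryo. Among 28 tested genes of synaptic vesicles and release, 25 rose and 0 fell (median 1.25). For postsynaptic and receptor proteins it was 25 and 0 of 29 (median 1.54), for neuronal ion channels 22 and 0 of 28 (median 1.33), and for neuronal cytoskeleton and growth cone 22 and 1 of 26 (median 1.19). The postsynaptic count was 14 on log2(FPKM + 1) with limma, where a filter at 1 FPKM removed genes of low level. Syt1, the calcium sensor of vesicle release, had 19.6 and 19.5 CPM at D18, against 3.35 and 2.76 CPM at D12 (log2 change 2.68 ± 0.20 (SE), adjusted p = 2.12e-07). Rab3c, a vesicle GTPase, had 39.2 and 41.7 CPM at D18, against 3.71 and 4.85 CPM at D12 (log2 change 3.24 ± 0.16 (SE), adjusted p = 3.23e-09). Both presynaptic genes were low in both D12 libraries. Gria2, a glutamate receptor subunit, had 30.4 and 31.04 CPM at D18, against 3.30 and 3.06 CPM at D12 (log2 change 3.27 ± 0.16 (SE), adjusted p = 1.63e-08). Scn3a, a sodium channel of embryonic neurons, had 29.1 and 27.7 CPM at D18, against 4.62 and 5.26 CPM at D12 (log2 change 2.52 ± 0.18 (SE), adjusted p = 1.35e-07). The receptor and the channel were several times higher in both D18 libraries. Mapt, the axonal microtubule protein tau, had 92.9 and 92.1 CPM at D18, against 18.03 and 16.7 CPM at D12 (log2 change 2.41 ± 0.08 (SE), adjusted p = 7.35e-11). Tubb3, neuronal tubulin, was already well expressed at D12 and had 217 and 229 CPM at D18, against 116 and 122 CPM at D12 (log2 change 0.90 ± 0.13 (SE), adjusted p = 0.000199), a smaller rise than that of the synaptic genes named above. Nefm, a neurofilament, was the member of the cytoskeletal list that fell (39.99 and 37.99 CPM at D18, against 63.4 and 64.01 CPM at D12; log2 change -0.71 ± 0.24 (SE), adjusted p = 0.0462), and leaving out any 1 of the 4 libraries lost that call (adjusted p between 0.127 and 0.172).

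Of 23 tested genes of transmitter synthesis and transport, 9 rose and 3 fell. Gad2, which makes the inhibitory transmitter GABA, had 23.4 and 24.5 CPM at D18, against 3.96 and 4.13 CPM at D12 (log2 change 2.56 ± 0.16 (SE), adjusted p = 3.65e-08). Slc32a1, its vesicular transporter, had 10.2 and 10.7 CPM at D18, against 1.78 and 2.35 CPM at D12 (log2 change 2.34 ± 0.24 (SE), adjusted p = 4.44e-06). Both were higher in both D18 libraries. Of the vesicular glutamate transporters, Slc17a6, which prevails in the embryo, rose, with 30.2 and 28.2 CPM at D18, against 7.62 and 8.52 CPM at D12 (log2 change 1.86 ± 0.14 (SE), adjusted p = 2.28e-07), and Slc17a7, which prevails in adult cortex, fell, with 1.66 and 2.33 CPM at D18, against 4.11 and 3.93 CPM at D12 (log2 change -1.01 ± 0.22 (SE), adjusted p = 0.00238). Among transcription factors of neuronal subtypes 15 of 30 rose and 2 fell, and the 17 calls became 11 without D12 replicate 1 or D18 replicate 1. Dlx1, a factor of forebrain inhibitory neurons, had 19.7 and 20.3 CPM at D18, against 5.08 and 3.67 CPM at D12 (log2 change 2.19 ± 0.17 (SE), adjusted p = 3.43e-07). Bcl11b, a factor of deep cortical and striatal neurons, had 16.3 and 16.4 CPM at D18, against 4.87 and 4.54 CPM at D12 (log2 change 1.79 ± 0.14 (SE), adjusted p = 3.76e-07). The proneural and spinal cord progenitor factors were split, with 6 rises and 6 falls among 21 tested (median -0.11), and the 12 calls became 7 on log2(FPKM + 0.1) with limma. Neurod6 and Neurod2, factors of young excitatory neurons, were nearly silent at D12. Neurod6 had 1.56 and 1.84 CPM at D18, against 0.0508 and 0 CPM at D12, 66.8-fold with an interval of 11.6 to 2670, and Neurod2 had 1.51 and 1.94 CPM at D18, against 0.0508 and 0.0510 CPM at D12, 33.9-fold with an interval of 9.03 to 285. Neurog1, which acts earlier in neuronal commitment, fell, with 3.47 and 3.72 CPM at D18, against 9.75 and 9.54 CPM at D12 (log2 change -1.42 ± 0.22 (SE), adjusted p = 0.000141).

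Neuropeptides went both ways, with 13 rises and 4 falls among 22 tested (median 1.28). Penk, the precursor of enkephalins, had 26.7 and 25.6 CPM at D18, against 1.83 and 1.89 CPM at D12 (log2 change 3.81 ± 0.16 (SE), adjusted p = 9.34e-10). Scg2, a granin of dense core vesicles, had 39.1 and 44.997 CPM at D18, against 6.65 and 5.97 CPM at D12 (log2 change 2.74 ± 0.13 (SE), adjusted p = 5.17e-09). In the other direction, Sst, somatostatin, had 2.31 and 2.68 CPM at D18, against 11.4 and 9.54 CPM at D12 (log2 change -2.07 ± 0.23 (SE), adjusted p = 9.00e-06), and Trh, thyrotropin-releasing hormone, had 20.7 and 19.3 CPM at D18, against 42.5 and 45.1 CPM at D12 (log2 change -1.13 ± 0.07 (SE), adjusted p = 3.85e-08). The days did not overlap for any of the 4 peptides. Among radial glia and astrocyte genes 19 of 24 rose and 1 fell (median 1.39). Nfix, a nuclear factor of the switch to gliogenesis, had 40.3 and 39.04 CPM at D18, against 2.89 and 2.19 CPM at D12 (log2 change 3.96 ± 0.15 (SE), adjusted p = 3.19e-10). Nfib, its relative, had 74.9 and 78.8 CPM at D18, against 9.60 and 11.5 CPM at D12 (log2 change 2.87 ± 0.11 (SE), adjusted p = 2.31e-10). Ptprz1, a phosphatase of radial glia, had 64.8 and 64.4 CPM at D18, against 11.5 and 12.5 CPM at D12 (log2 change 2.43 ± 0.08 (SE), adjusted p = 1.04e-10). The member that fell was Glul, glutamine synthetase, which liver and many other cells also express (339 and 318 CPM at D18, against 392 and 393 CPM at D12; log2 change -0.26 ± 0.05 (SE), adjusted p = 0.00107). Neural progenitor genes as a list were near the background, with 6 rises and 5 falls among 23 tested. Nes, nestin, had 124 and 129.7 CPM at D18, against 191 and 184 CPM at D12 (log2 change -0.56 ± 0.07 (SE), adjusted p = 3.13e-05), Sox3 had 14.8 and 14.3 CPM at D18, against 24.98 and 25.1 CPM at D12 (log2 change -0.78 ± 0.11 (SE), adjusted p = 7.24e-05), and Pax6, a factor of forebrain and eye progenitors, rose, with 22.3 and 23.1 CPM at D18, against 11.5 and 13.2 CPM at D12 (log2 change 0.88 ± 0.11 (SE), adjusted p = 3.24e-05). Sox10, which marks neural crest and oligodendrocytes, did not pass, with 0.704 and 0.745 CPM at D18, against 0.812 and 0.613 CPM at D12 (adjusted p = 0.974).

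The list of eye and lens genes, with 5 rises and 3 falls among 16 tested, lay near the shares of all genes, and its 8 calls became 5 without D12 replicate 1 or D18 replicate 1. The crystallins in it rose. Cryaa, a crystallin that acts as a chaperone of the lens, had 13.9 and 14.4 CPM at D18, against 1.12 and 0.766 CPM at D12 (log2 change 3.90 ± 0.25 (SE), adjusted p = 3.77e-08). Crybb1, a structural crystallin of lens fibres, had 1.91 and 2.19 CPM at D18, against 0 counts at D12, at least 26.8-fold higher. Cryba1 had 2.57 and 2.73 CPM at D18, against 0 and 0.0510 CPM at D12, 104-fold with an interval of 18.3 to 4150. Crx, the factor of photoreceptor precursors, fell, with 1.66 and 1.84 CPM at D18, against 3.61 and 3.88 CPM at D12 (log2 change -1.09 ± 0.20 (SE), adjusted p = 0.000699).

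Most tested globin genes fell. Embryonic red cells of the yolk sac carry the globins Hba-x, Hbb-bh1 and Hbb-y, and later cells use the adult globins. Of 12 globin genes in the list 10 were listed and 6 tested, of which 5 fell and 1 did not pass. Their summed level was 1.26 and 1.29 CPM at D18 against 56.4 and 57.98 CPM at D12. Hbb-bh1 had 0.0503 and 0.248 CPM at D18, against 24.2 and 26.4 CPM at D12 (log2 change -7.34 ± 0.32 (SE), adjusted p = 2.85e-09), and Hba-x had 0.101 and 0.0993 CPM at D18, against 17.7 and 18.7 CPM at D12 (log2 change -7.41 ± 0.31 (SE), adjusted p = 4.90e-09). Both were at the edge of detection in the D18 libraries. The wider list of erythroid cells was split, with 4 rises and 5 falls among 18 tested (median -0.28), and its summed level was 280.2 and 294 CPM at D18 against 253 and 260.0 CPM at D12. Its 9 calls became 5 on log2(FPKM + 1) and 3 on log2(FPKM + 0.1) with limma. Hbb-y had 0.101 and 0 CPM at D18, against 2.64 and 2.76 CPM at D12, 54-fold lower with an interval of 14.6 to 452. Hba-a1 had 0.453 and 0.546 CPM at D18, against 9.60 and 7.91 CPM at D12 (log2 change -4.11 ± 0.32 (SE), adjusted p = 2.59e-07), and Hba-a2 had 0 counts at D18 and 1.47 and 1.12 CPM at D12, at least 17.3-fold lower. The last pair are near-identical copies, so how reads were divided between them is uncertain. Hbb-bh2 did not pass, with 0.503 and 0.397 CPM at D18, against 0.355 and 0.715 CPM at D12, and its values overlapped between the days. Alas2, the heme synthesis enzyme of red cells, had 0.201 and 0.298 CPM at D18, against 1.78 and 1.79 CPM at D12 (log2 change -2.80 ± 0.43 (SE), adjusted p = 0.000141). Gata1, the erythroid master factor, was under 1 CPM in all 4 libraries and did not pass, with 0.604 and 0.298 CPM at D18, against 0.559 and 0.817 CPM at D12.

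Several macrophage genes rose from near 0. In the list of macrophages and other leukocytes 11 of 21 tested rose and 1 fell (median 1.13). C1qb, a complement subunit made by tissue macrophages, had 1.16 and 1.54 CPM at D18, against 0.0508 and 0 CPM at D12, a ratio of 53 with an interval of 9.12 to 2130. C1qc, its partner, had 1.16 and 0.944 CPM at D18, against 0 and 0.0510 CPM at D12, a ratio of 41.2 with an interval of 7.01 to 1670. Lyz2, lysozyme of myeloid cells, had 1.71 and 1.49 CPM at D18, against 0.152 and 0.153 CPM at D12 (log2 change 3.33 ± 0.37 (SE), adjusted p = 2.22e-05), and Ctss, a lysosomal protease of antigen-presenting cells, had 1.26 and 0.993 CPM at D18, against 0.0508 and 0.0510 CPM at D12, 22.1-fold with an interval of 5.77 to 188. These levels were all low, at about 1 to 2 CPM at D18, and above both D12 libraries. Ptprc, the pan-leukocyte marker CD45, had 0.754 and 0.745 CPM at D18, against 0.203 and 0 CPM at D12 (adjusted p = 0.0118), a call lost without D12 replicate 2 or either D18 replicate and with DESeq2 (adjusted p = 0.0862). Csf1r, the macrophage growth factor receptor, did not pass, with 15.2 and 14.1 CPM at D18, against 14.7 and 14.1 CPM at D12 (adjusted p = 0.91). Complement, interferon and antigen presentation genes had 17 rises and 2 falls among 26 tested (median 0.57). C3, the central complement protein, had 2.11 and 2.33 CPM at D18, against 0.508 and 0.204 CPM at D12 (log2 change 2.62 ± 0.35 (SE), adjusted p = 4.27e-05), and Isg15, a ubiquitin-like protein induced by interferon, had 3.72 and 3.87 CPM at D18, against 0.863 and 0.919 CPM at D12 (log2 change 2.08 ± 0.31 (SE), adjusted p = 0.000119). The complement gene Cfb fell, with 4.22 and 3.68 CPM at D18, against 7.26 and 7.35 CPM at D12 (log2 change -0.89 ± 0.21 (SE), adjusted p = 0.00439), a call lost without D18 replicate 2 (adjusted p = 0.0552).

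Endothelial genes leaned down, with 13 falls and 5 rises among 25 tested (median -0.45). Aplnr, the apelin receptor of angiogenic endothelium, had 1.86 and 1.49 CPM at D18, against 8.79 and 9.24 CPM at D12 (log2 change -2.42 ± 0.18 (SE), adjusted p = 3.30e-07). Tie1, an endothelial receptor, had 2.92 and 2.48 CPM at D18, against 13.8 and 12.2 CPM at D12 (log2 change -2.27 ± 0.22 (SE), adjusted p = 2.16e-06). Kdr, the main VEGF receptor, had 13.8 and 15.05 CPM at D18, against 26.8 and 28.5 CPM at D12 (log2 change -0.94 ± 0.11 (SE), adjusted p = 1.34e-05), and Cdh5, the adhesion molecule of endothelial junctions, had 19.4 and 21.4 CPM at D18, against 34.3 and 32.97 CPM at D12 (log2 change -0.72 ± 0.10 (SE), adjusted p = 6.20e-05). Both libraries of D12 were higher for each of these 4. Flt1, a VEGF receptor that also acts as a decoy, rose, with 104 and 104 CPM at D18, against 53.8 and 58.7 CPM at D12 (log2 change 0.88 ± 0.08 (SE), adjusted p = 8.78e-07). Sox17, a factor of arterial endothelium and of definitive and primitive endoderm, rose too, with 63.9 and 65.1 CPM at D18, against 35.6 and 29.2 CPM at D12 (log2 change 0.99 ± 0.09 (SE), adjusted p = 1.45e-06). Kit, which marks blood progenitors, mast cells, melanocytes and germ cells, had 163 and 166 CPM at D18, against 88.4 and 89.9 CPM at D12 (log2 change 0.88 ± 0.09 (SE), adjusted p = 1.03e-05).

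Most genes of the visceral endoderm, the epithelium of the yolk sac, fell. This layer takes up maternal proteins through cubilin and its partner amnionless and secretes apolipoproteins and plasma carriers. Among its receptors and uptake genes 15 of 18 fell and 1 rose (median -0.87). In the apolipoprotein list 9 of 13 tested fell and 1 rose (median -1.32). The rise was Apobec1 (log2 change 0.5664), which is not itself an apolipoprotein. Apod, outside the list, rose by 2.415 on the log2 scale. Plasma carriers and clotting proteins had 9 falls and 1 rise among 21 tested (median -0.59). Cubn, cubilin, had 43.8 and 42.4 CPM at D18, against 144 and 146 CPM at D12 (log2 change -1.75 ± 0.07 (SE), adjusted p = 8.91e-10). Amn, amnionless, had 4.43 and 5.07 CPM at D18, against 28.7 and 26.2 CPM at D12 (log2 change -2.53 ± 0.12 (SE), adjusted p = 1.69e-09). Cldn2, a pore-forming tight junction protein, had 4.63 and 4.42 CPM at D18, against 17.98 and 18.6 CPM at D12 (log2 change -2.01 ± 0.14 (SE), adjusted p = 6.51e-08). The receptor pair and the claudin were high in both D12 libraries. Rbp4, the retinol carrier, had 62.2 and 62.3 CPM at D18, against 249 and 253 CPM at D12 (log2 change -2.01 ± 0.09 (SE), adjusted p = 2.48e-09). Ttr, transthyretin, had 42.8 and 38.3 CPM at D18, against 129 and 129 CPM at D12 (log2 change -1.67 ± 0.08 (SE), adjusted p = 3.67e-09). Afp, alpha-fetoprotein, had 209 and 214 CPM at D18, against 353 and 366 CPM at D12 (log2 change -0.77 ± 0.10 (SE), adjusted p = 7.12e-05). The fall in Afp was smaller than in the other carriers named, and it was lost on log2(FPKM + 0.1) with limma (adjusted p = 0.167). Alb, albumin, was the member of the carrier and clotting list that rose, at under 1 CPM in all 4 libraries (0.905 and 0.497 CPM at D18, against 0.152 and 0.0510 CPM at D12). Its call was lost without D12 replicate 2 (log2 change 2.15) or D18 replicate 1 (2.213). Outside the list, Afm and A2m rose by 3.762 and 2.858 on the log2 scale.

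Most pluripotency genes fell. Of 26 tested, 18 fell and 2 rose, with a median of -0.48 beside 0.00 over all genes. Pou5f1, with the levels given above, fell (log2 change -0.46 ± 0.07 (SE), adjusted p = 0.00014), and Nanog, its partner in the core network, had 110.3 and 114 CPM at D18, against 137 and 143 CPM at D12 (log2 change -0.32 ± 0.06 (SE), adjusted p = 0.00145). Esrrb, an orphan receptor of the naive state, had 66.8 and 69.9 CPM at D18, against 98.9 and 94.99 CPM at D12 (log2 change -0.50 ± 0.07 (SE), adjusted p = 4.07e-05). Nanog and Esrrb stayed above 60 CPM in each D18 library. The members that rose were Klf4, with 83.1 and 78.4 CPM at D18, against 39.4 and 37.01 CPM at D12 (log2 change 1.08 ± 0.13 (SE), adjusted p = 5.39e-05), and Klf5, with 44.7 and 43.95 CPM at D18, against 29.3 and 27.2 CPM at D12 (log2 change 0.65 ± 0.07 (SE), adjusted p = 1.13e-05), zinc finger factors that are also expressed in stratified epithelium. Outside this list, Fgf8, a growth factor of the primitive streak and of brain organizers, had 0.352 and 0.397 CPM at D18, against 4.01 and 3.93 CPM at D12 (log2 change -3.38 ± 0.25 (SE), adjusted p = 1.44e-07).

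The pluripotency list member with the largest fall was Lin28b, with 17.6 and 16.98 CPM at D18, against 65.7 and 68.2 CPM at D12 (log2 change -1.95 ± 0.07 (SE), adjusted p = 2.46e-10). LIN28 proteins bind precursors of let-7 microRNAs and block their maturation, and mature let-7 in turn represses LIN28 and other genes of early embryos through sites in their 3′ untranslated regions. Because Lin28b and Igdcc3, an immunoglobulin family surface protein and 1 of the 12 largest falls, are both known in mouse as let-7 targets, the family's sequences were set beside these data. MicroRNAs were not measured in these libraries. The genes set beside it here were chosen after their values were seen, so the group is a description. The mature microRNAs, from RefSeq (GRCm38.p6), share the seed GAGGUAG, bases 2 to 8, shown in capitals.
mmu-let-7a-5p: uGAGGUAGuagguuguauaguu
mmu-let-7c-5p: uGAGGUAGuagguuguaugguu
mmu-let-7g-5p: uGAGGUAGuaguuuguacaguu
mmu-miR-98-5p: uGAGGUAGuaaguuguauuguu
Complements of that seed, CTACCTC in capitals, lie in these stretches of 3′ untranslated regions of the GENCODE M21 annotation (GRCm38). They are shown for 5 genes that fell, chosen after their values were seen, and not every site of each gene is printed.
Lin28b, chr10:45381017-45381038, minus strand: gcgggaagtCTACCTCatgcaa
Lin28a, chr4:134005184-134005205, minus strand: cctgttgaaCTACCTCattttt
Lin28a, chr4:134004546-134004567, minus strand: gccacaaacCTACCTCactgtg
Igdcc3, chr9:65185713-65185734, plus strand: tctcagcacCTACCTCagccgg
Igdcc3, chr9:65185793-65185814, plus strand: aaagcactcCTACCTCaagccc
Hmga2, chr10:120364219-120364240, minus strand: attcaatttCTACCTCagcatc
Trim71, chr9:114512467-114512488, minus strand: gcctaagtcCTACCTCagctta
Trim71, chr9:114512371-114512392, minus strand: aatttctatCTACCTCaactct

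All 13 genes looked at fell, Lin28b among them. Igdcc3, with 2 matches, had 61.1 and 61.7 CPM at D18, against 367 and 356 CPM at D12 (log2 change -2.56 ± 0.07 (SE), adjusted p = 8.35e-12). Prtg, protogenin, a related surface protein of early neural tissue with 2 matches, had 48.5 and 45.6 CPM at D18, against 191 and 192 CPM at D12 (log2 change -2.02 ± 0.15 (SE), adjusted p = 4.04e-06). Lin28a, with 2 matches, had 96.1 and 95.2 CPM at D18, against 237 and 242 CPM at D12 (log2 change -1.32 ± 0.18 (SE), adjusted p = 0.000369). In each the D12 libraries were the higher pair by a wide margin. Trim71, a ubiquitin ligase and RNA-binding protein of early embryos with 4 matches, had 24.9 and 22.7 CPM at D18, against 47.8 and 46.7 CPM at D12 (log2 change -0.99 ± 0.09 (SE), adjusted p = 1.94e-06). Hmga2, a chromatin protein of fetal growth with 4 matches, had 99.6 and 102 CPM at D18, against 181 and 194 CPM at D12 (log2 change -0.89 ± 0.15 (SE), adjusted p = 0.000994). Nr6a1, a nuclear receptor of early embryos with 8 matches, had 53.3 and 52.05 CPM at D18, against 98.1 and 102 CPM at D12 (log2 change -0.92 ± 0.08 (SE), adjusted p = 1.07e-06). Falls of this group were thus smaller than those of Igdcc3 and Prtg. The RNA-binding proteins Igf2bp1, Igf2bp2 and Igf2bp3 changed by -0.71 ± 0.10, -0.56 ± 0.06 and -0.55 ± 0.06 on the log2 scale (SE). Arid3a, Hmga1 and Dicer1, the enzyme that cuts microRNA precursors, changed by -0.81, -0.81 and -0.27, and Dicer1 had 0 matches in its annotated untranslated region.

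Over all genes, falls were counted by the number of seed matches. Of the 15804 tested genes with an annotated 3′ untranslated region, 14192 had 0 matches, and 17.2% of those fell and 20.7% rose. The 1418 genes with 1 match had 17.1% falls and 24.6% rises. Their share of falls was thus not above that of genes with 0 matches, and their share of rises was higher. The 166 genes with 2 matches had 23.5% falls and 16.9% rises, with a median log2 change of -0.02. Of 28 genes with 3 or more matches 12 fell (42.9%) and 4 rose (14.3%), with a median of -0.19. These 12 falls include Lin28b, Trim71, Hmga2, Igf2bp1 and Nr6a1, which were named above with their values already seen. Regions with more matches were also longer, with a median length of 4460 bases for 3 or more matches and 1010 bases for 0. Genes with 0 matches and a length like that of genes with a match had 13.8% falls and 26.2% rises. Their median length was 2060 bases, so they do not match the length of genes with 3 or more matches. A match is a description of letters and does not show that a microRNA acts there.

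**Figure D3:**
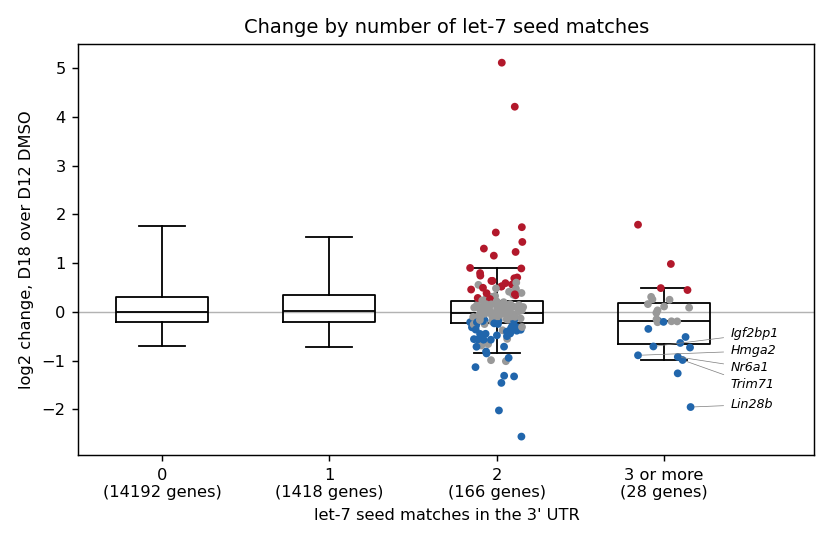
Change between the days by the number of let-7 seed matches in the 3′ untranslated region (vertical axis: log2 change, D18 over D12 with DMSO; boxes, median and quartiles; whiskers, the 5th and 95th percentiles; points, single genes where there are 2 or more matches, red higher, blue lower, grey not passed). The 28 genes with 3 or more matches include 12 falls and 4 rises, with Lin28b lowest of the 5 genes named, whose values had been seen beforehand.

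Cell division genes fell by small and even steps. All 30 tested mitosis genes fell, with log2 changes between -0.82 and -0.35 (median -0.53), and 34 of 36 DNA replication genes fell with 0 rises (median -0.55). The summed level of the mitosis list was 3435 and 3446 CPM at D18 against 4937 and 5059 CPM at D12. Cdc20, the activator of the anaphase-promoting complex, had 116 and 114 CPM at D18, against 207 and 198 CPM at D12 (log2 change -0.82 ± 0.05 (SE), adjusted p = 5.05e-08). Cenpa, the histone of centromeres, had 63.2 and 61.98 CPM at D18, against 108 and 109 CPM at D12 (log2 change -0.80 ± 0.07 (SE), adjusted p = 1.26e-06). Mki67, the proliferation marker, had 318 and 312 CPM at D18, against 377 and 424 CPM at D12 (log2 change -0.35 ± 0.06 (SE), adjusted p = 0.000381). In replication, Rrm2, the ribonucleotide reductase subunit, had 99.9 and 96.6 CPM at D18, against 174 and 170.3 CPM at D12 (log2 change -0.81 ± 0.06 (SE), adjusted p = 3.30e-07), and Pcna, the sliding clamp, had 140.2 and 140.1 CPM at D18, against 222 and 225 CPM at D12 (log2 change -0.67 ± 0.05 (SE), adjusted p = 3.39e-07). Each gene here was lower in both D18 libraries, by less than 2-fold. Inhibitors of cyclin-dependent kinases and p53 targets had 2 rises and 9 falls among 22 tested, and the 11 calls became 5 without D12 replicate 2 or D18 replicate 1, 17 without the ES libraries and 18 with only the libraries compared.

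Mitotic genes are known to share a promoter arrangement in which CCAAT boxes lie upstream of a cell cycle homology region, CHR, near the start. The RefSeq promoters (GRCm38.p6) of Ccnb2, the cyclin B2 gene, and Cdk1, its kinase, are shown, with CCAAT or its reverse complement ATTGG and the CHR letters TTTGAA in capitals. Both genes were chosen after their values were seen. As printed, the first TTTGAA of Ccnb2 lies upstream of every CCAAT, and the first of Cdk1 lies upstream of the last ATTGG. Capitals mark letters only, and these stretches do not follow the known arrangement. Ccnb2 lies at chr9:70421505-70421804 and Cdk1 at chr10:69352863-69353162, each on the minus strand.
Ccnb2 promoter: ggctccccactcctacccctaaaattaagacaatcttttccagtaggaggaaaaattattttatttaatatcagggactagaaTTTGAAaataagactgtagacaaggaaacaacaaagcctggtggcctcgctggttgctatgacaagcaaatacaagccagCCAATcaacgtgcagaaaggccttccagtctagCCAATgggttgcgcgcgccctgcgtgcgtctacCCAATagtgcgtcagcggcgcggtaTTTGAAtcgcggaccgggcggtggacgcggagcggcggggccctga
Cdk1 promoter: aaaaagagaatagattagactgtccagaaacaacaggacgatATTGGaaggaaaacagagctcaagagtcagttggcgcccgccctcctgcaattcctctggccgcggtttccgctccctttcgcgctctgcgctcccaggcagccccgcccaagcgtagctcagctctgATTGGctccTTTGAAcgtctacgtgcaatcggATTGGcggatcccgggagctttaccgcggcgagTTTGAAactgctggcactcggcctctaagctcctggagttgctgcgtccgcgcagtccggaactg
Ccnb2 had 86.5 and 86.1 CPM at D18, against 123 and 125 CPM at D12 (log2 change -0.52 ± 0.07 (SE), adjusted p = 5.23e-05), and Cdk1 had 114 and 98.8 CPM at D18, against 147 and 139.7 CPM at D12 (log2 change -0.43 ± 0.08 (SE), adjusted p = 0.000618). Of the 25 mitosis genes with a promoter in the table, 19 (76%) held CCAAT and 18 (72%) held TTTGAA, on either strand. The shares were 42.9% and 14.7% over the 12714 tested genes with a promoter, and 37.4% and 17.9% over all 32851 promoters. Both motifs were in 16 of the 25 (64%), against 6.16% of tested genes. Of 28 DNA replication genes with a promoter 5 held TTTGAA (17.9%). The letters describe the promoters and say nothing of which factor was bound at either day.

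Genes of ribosomes and growth fell by small steps. Ribosome biogenesis and MYC target genes had 23 falls and 0 rises among 26 tested (median -0.35). Npm1, nucleophosmin, had 1039.8 and 1146 CPM at D18, against 1529 and 1674 CPM at D12 (log2 change -0.55 ± 0.07 (SE), adjusted p = 3.39e-05). Fbl, the methyltransferase of ribosomal RNA, had 114 and 114 CPM at D18, against 172 and 156 CPM at D12 (log2 change -0.53 ± 0.06 (SE), adjusted p = 1.23e-05). Cytosolic ribosomal proteins had 20 falls and 0 rises among 35 tested (median -0.20), a count that was 13 with library size alone as the scaling and 5 to 12 when 1 of the 4 libraries was left out, with 5 without D12 replicate 1. The nuclear encoded respiratory chain had 3 falls among 30 tested (median -0.06), or 1 without D18 replicate 1, 7 without the ES libraries and 8 with only the libraries compared. In the list of glycolysis and hypoxia 9 of 29 fell and 7 rose, and the 16 calls became 10 without D12 replicate 1 or D18 replicate 2. Eno3, the muscle enolase, had 19.1 and 20.9 CPM at D18, against 56.6 and 55.6 CPM at D12 (log2 change -1.49 ± 0.08 (SE), adjusted p = 4.70e-09), and Slc2a1, the common glucose transporter, had 505 and 525 CPM at D18, against 796 and 782 CPM at D12 (log2 change -0.62 ± 0.06 (SE), adjusted p = 2.72e-06). The glycolytic enzyme Gapdh, often used as a constant reference, had 3441 and 3462 CPM at D18, against 4547 and 4561 CPM at D12 (log2 change -0.40 ± 0.10 (SE), adjusted p = 0.00568).

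Signalling genes moved gene by gene. Among Wnt ligands and feedback genes 12 of 36 rose and 5 fell. Wif1, a secreted Wnt inhibitor, had 24.1 and 27.3 CPM at D18, against 2.34 and 2.30 CPM at D12 (log2 change 3.47 ± 0.17 (SE), adjusted p = 3.69e-09), and Dkk2 had 34.1 and 35.2 CPM at D18, against 10.2 and 10.2 CPM at D12 (log2 change 1.77 ± 0.11 (SE), adjusted p = 3.70e-08), while Dkk1, another inhibitor, fell, with 11.1 and 10.5 CPM at D18, against 23.8 and 21.8 CPM at D12 (log2 change -1.08 ± 0.12 (SE), adjusted p = 6.38e-06). Wnt1, the ligand of the midbrain and dorsal neural tube, had 17 and 17.9 CPM at D18, against 44.3 and 43.8 CPM at D12 (log2 change -1.33 ± 0.10 (SE), adjusted p = 5.71e-07), and Wnt2 had 0.201 and 0.397 CPM at D18, against 3.66 and 3.73 CPM at D12 (log2 change -3.59 ± 0.39 (SE), adjusted p = 1.08e-05). Inhibitors were found on both sides. In the BMP and TGF-beta list 10 rose and 9 fell among 33 tested. Gdf10 had 10.1 and 11.03 CPM at D18, against 0.914 and 0.357 CPM at D12 (log2 change 4.04 ± 0.26 (SE), adjusted p = 2.35e-07) and Bmp3 had 11.5 and 12.02 CPM at D18, against 2.95 and 3.11 CPM at D12 (log2 change 1.96 ± 0.15 (SE), adjusted p = 3.74e-07), whereas Bmp2 had 14.1 and 14.3 CPM at D18, against 26 and 25.2 CPM at D12 (log2 change -0.85 ± 0.10 (SE), adjusted p = 1.42e-05). Among FGF, retinoic acid and IGF genes 15 rose and 9 fell of 38. Igf1, the growth factor of later stages, had 20.6 and 22.1 CPM at D18, against 3.91 and 5.16 CPM at D12 (log2 change 2.23 ± 0.14 (SE), adjusted p = 2.75e-08), and Aldh1a2, which makes retinoic acid, had 6.04 and 5.31 CPM at D18, against 1.12 and 1.58 CPM at D12 (log2 change 2.07 ± 0.23 (SE), adjusted p = 8.96e-06). Notch and hedgehog genes leaned down, with 11 falls and 3 rises among 30 tested (median -0.24). Gli1, a target of hedgehog signalling, had 22.7 and 23.3 CPM at D18, against 32.9 and 31.8 CPM at D12 (log2 change -0.49 ± 0.10 (SE), adjusted p = 0.00142). Without the ES libraries 22 of the 30 passed, and without D12 replicate 2 or D18 replicate 2 it was 9. Hox genes, which give positional identity, had few calls, with 2 falls among 10 tested of paralogue groups 1 to 4, and 1 rise and 4 falls among 14 of groups 5 to 9. Without any 1 of the 4 libraries the calls of groups 5 to 9 became 2, and those of groups 1 to 4 became 1 without D12 replicate 2 and 0 without any 1 of the other 3.

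As background, TBBPA is known to resemble thyroid hormone in structure, so genes of thyroid hormone, dioxin and steroid response were taken as a list. With vehicle alone 8 of 24 tested rose and 2 fell. Thra, the thyroid hormone receptor of the nervous system and heart, had 171 and 174 CPM at D18, against 72.01 and 68.4 CPM at D12 (log2 change 1.30 ± 0.07 (SE), adjusted p = 1.26e-08). Dio3, the enzyme that inactivates thyroid hormone, fell, with 2.16 and 2.48 CPM at D18, against 5.08 and 4.54 CPM at D12 (log2 change -1.05 ± 0.18 (SE), adjusted p = 0.000378). Cyp1b1, a target of the dioxin receptor, had 62.9 and 64.1 CPM at D18, against 22.6 and 22.8 CPM at D12 (log2 change 1.48 ± 0.07 (SE), adjusted p = 3.01e-09), and Greb1, a gene induced by estrogen in human breast cells, had 8.50 and 7.90 CPM at D18, against 41.996 and 45.8 CPM at D12 (log2 change -2.42 ± 0.09 (SE), adjusted p = 2.49e-10). The days did not overlap for any of these 4 genes.

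Values of the other control days place the step within the course. The stratified keratin Krt6a was at most 0.182 CPM in any control library up to D12 and stood at 5.94 and 5.66 CPM at D18 and at 73.9 and 77.2 CPM at D28. Gfap went on to 694 and 698 CPM at D28. Eln reached 736 and 702 CPM at D28. These genes kept climbing after D18 in both D28 libraries. Gad2 and Gria2, chosen after their values were seen, were higher at D18 than at D28, where Gad2 had 2.003 and 3.08 CPM and Gria2 had 9.51 and 9.13 CPM. Myod1 had 2.95 and 3.43 CPM at D28, below both of its D18 values. The primitive globin Hbb-bh1 had 0.0607 and 0 CPM in ES cells, 2.98 and 2.44 CPM at D9 and 0 CPM in both D28 libraries, so D12 was the day of its highest level among the days sampled. Igdcc3 had 217 and 222 CPM at D9 and 14.3 and 13.98 CPM at D28, and was likewise highest at D12. Lin28b peaked at D9, with 122 and 123 CPM, and had 4.11 and 3.38 CPM at D28. No test was made between these other days.

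**Figure D4:**
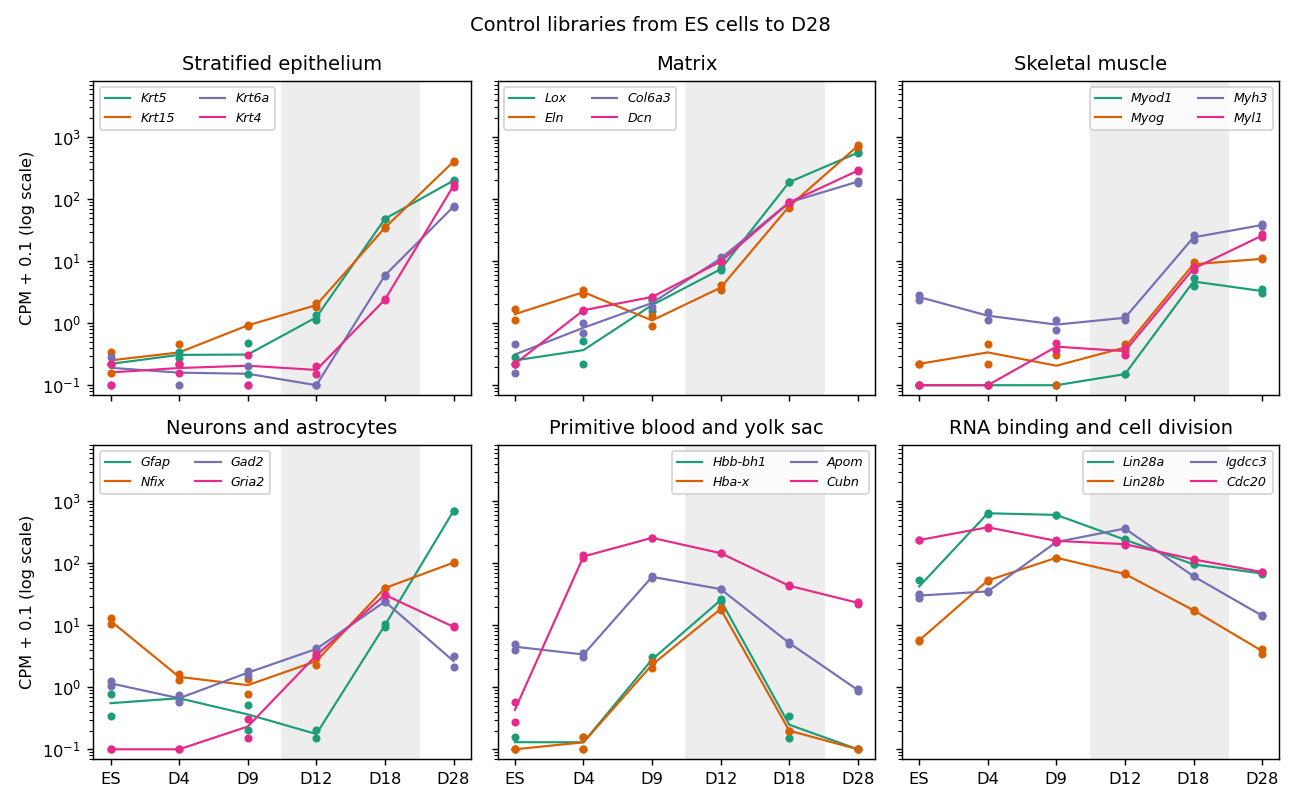
CPM + 0.1 (log scale) of 24 genes in the control libraries at ES, D4, D9, D12, D18 and D28 (points, single libraries; lines, means of 2; grey band, the D12 and D18 groups compared). Keratins, matrix and muscle genes climb inside the band, with Krt6a at 5.94 and 5.66 CPM at D18 against 0 at D12, and the globins drop inside it.

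The same days were also sampled with TBBPA, as 1 library with 10 nM and 1 with 100 nM per day, which were taken as a pair of samples. In those libraries 6619 of 16383 tested genes changed between D18 and D12 (40.4%), with 3442 rises (21%) and 3177 falls (19.4%). The D18 and D12 libraries contrasted are not shared between the DMSO and the TBBPA step. The TBBPA fit, however, took its spread and scaling from all 22 libraries, the control libraries included, so the steps are not fully independent. Of the 3347 genes that rose with DMSO, 3210 had the same sign with TBBPA and 2502 passed in the same direction, which is 74.8% of the DMSO rises and 72.7% of the TBBPA rises. Of the 2763 that fell with DMSO, 2556 had the same sign and 1927 passed in the same direction, which is 69.7% of the DMSO falls and 60.7% of the TBBPA falls. Opposite calls numbered 7 among the rises and 42 among the falls. All 30 mitosis genes and 35 of 36 replication genes fell with TBBPA, and 24 of 28 synaptic vesicle genes and 11 of 16 basal epithelial genes rose. Krt5 changed by 5.18, Gfap by 6.17 and Hbb-bh1 by -5.65 on the log2 scale with TBBPA.

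A test of the difference between the steps passed for 309 of 16383 genes (1.89%), 213 higher (1.3%) and 96 lower (0.586%) with TBBPA than with DMSO. That count was 83 to 333 when 1 of the 8 libraries was left out, the highest without the D18 library with 10 nM, and 890 in a fit of those 8 libraries alone. Mybpc1, a myosin-binding protein of skeletal muscle, had 2.85 and 3.47 CPM in the D18 TBBPA libraries and 4.15 and 3.02 CPM in the D12 TBBPA libraries, against 7.24 and 6.56 CPM at D18 and 2.39 and 2.65 CPM at D12 with DMSO (difference of log2 changes -1.62 ± 0.34 (SE), adjusted p = 0.0149). That call was lost without either D12 DMSO replicate, D18 DMSO replicate 1 or the D12 library with 10 nM (adjusted p between 0.0606 and 0.0985). Mylk had 21.5 and 14.1 CPM in the D18 TBBPA libraries and 14.7 and 15.8 CPM in the D12 TBBPA libraries and did not pass with TBBPA (adjusted p = 0.191), and the difference of log2 changes was -1.25 ± 0.19 (SE), adjusted p = 0.000978. Receptors of the visceral endoderm differed the other way. Cubn had 61.6 and 54.2 CPM in the D18 TBBPA libraries and 76.1 and 68.2 CPM in the D12 TBBPA libraries (difference of log2 changes 1.44 ± 0.19 (SE), adjusted p = 0.000978), and Amn had 8.41 and 8.51 CPM in the D18 TBBPA libraries and 19.4 and 14.9 CPM in the D12 TBBPA libraries (difference of log2 changes 1.52 ± 0.19 (SE), adjusted p = 0.000336). For both receptors the D12 TBBPA libraries stood below the D12 DMSO libraries and the D18 TBBPA libraries above the D18 DMSO libraries. Of the 18 visceral endoderm genes tested 8 differed between the steps, with 5 rises and 7 falls with TBBPA where DMSO had 1 and 15. In the skeletal contractile list 4 of 26 differed, with 5 rises and 4 falls with TBBPA where DMSO had 16 and 3. Pluripotency genes had 5 rises and 4 falls with TBBPA, and 3 of 26 differed between the steps. The D18 pair of TBBPA libraries had a mean chi-square per gene of 6.81, more than the D18 DMSO pair at 2.31, and dose is 1 of the things in which that pair differs.

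**Figure D5:**
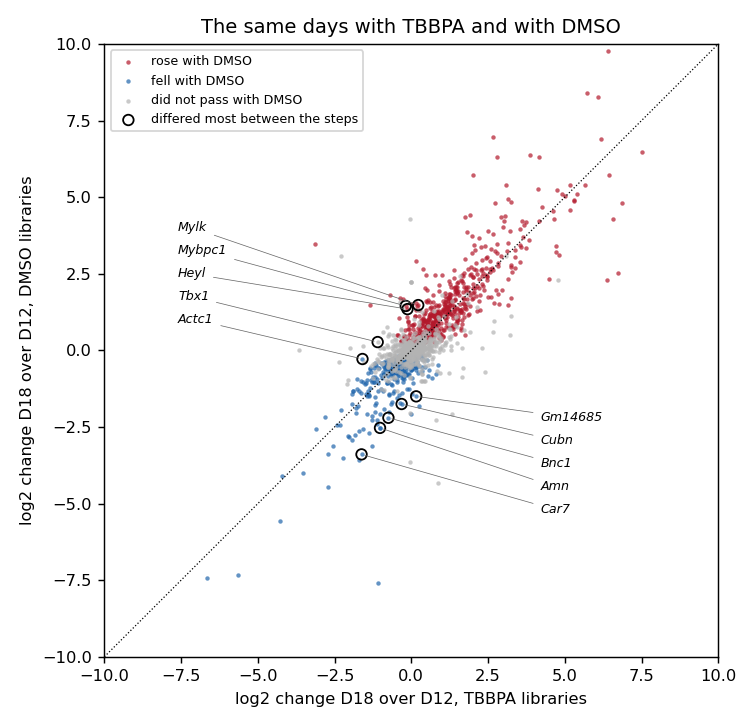
Log2 change of D18 over D12 in the TBBPA libraries (horizontal) and the DMSO libraries (vertical) for the members of the gene lists and the named genes (red, rose with DMSO; blue, fell with DMSO; grey, did not pass with DMSO; circles, the 10 genes named for the difference between the steps). Most genes lie along the dotted line of equal change; Mylk and Mybpc1 lie above it and Cubn and Amn below it.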

How the data were processed

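RNA-seq libraries of whole embryoid bodies and ES cells were analysed from tables made by the authors, 1 per library. Expected counts and FPKM values per gene were taken as deposited. Per the submitters' processing notes the tools included HISAT and Bowtie2 and the build was GRCm38.p5; which tool counted the reads was not given in the sources used here. Genes absent from a table were set to a count of 0.

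Expected counts were rounded and tested in R 4.3.3 with edgeR 4.0.16 (TMM scaling, filterByExpr with a minimum count of 10, quasi-likelihood test) over the 12 control libraries, with Benjamini-Hochberg adjustment over all genes tested and a threshold of 0.05. The TBBPA step and its difference from the DMSO step were fitted with the same test over all 22 libraries, with the 2 doses of a day as its pair of libraries. CPM values use the TMM factors. Alternatives were DESeq2 1.42.0, other scalings and filters, limma 3.58.1 on log2(FPKM + 1) and log2(FPKM + 0.1) of the deposited FPKM values, other sets of libraries, a replicate block and each library left out. Ratios on 3 or fewer counts carry exact 95% intervals, which cover counting error only. On simulated data of 16101 tested genes the test recovered 80.6%, 91% and 97% of 1.5-, 2- and 4-fold changes of the DMSO step. Of its calls, 4.79% were not simulated as changed. Only a small part of the genes, all above a minimum mean count, was given a change, and every gene had the same simulated spread. These shares describe that setting and cannot be carried over to the real calls, which are far more numerous and include low genes.

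Genes were named by rule: the 12 largest rises and falls with a mean log2 CPM of at least 2 and no overlap, the 8 largest gains and losses in CPM, the 6 members of smallest p and the members against the direction of each list, 30 markers, all listed globins, and the 5 largest differences between the steps in each direction. The text names part of these, and some genes that the rule picks are not reported here. Prtg, Lin28a, Hmga2, Hmga1, Trim71, Nr6a1, Arid3a, Dicer1, Igf2bp1, Igf2bp2, Igf2bp3, Ccnb2 and Cdk1 were chosen after their values were seen. Members and lists were chosen with earlier results of these data known. Promoters and microRNAs are from RefSeq (GRCm38.p6), untranslated regions from GENCODE M21 (GRCm38).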

Additional observations from a re-analysis of the deposited data

Results flagged for a closer look

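The results given here stand out because the change between D18 and D12 differed between TBBPA and DMSO in the test of the difference itself, which 309 genes passed. Values are the log2 change with TBBPA minus that with DMSO. With 2 libraries a group, no sample can be called an outlier.

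The change, as distinct from the level on a day, was lower with TBBPA for a first set of genes. These were the muscle genes Mybpc1 (-1.62), Chrna1 (-1.47), Actc1 (-1.30), Mylk (-1.25) and Actn2 (-1.24), and those that follow in this paragraph. The Notch effector Heyl differed by -1.46, the pharyngeal factor Tbx1 by -1.36 and the integrin Itga8 by -0.85. Of neural genes, Crabp1, a binder of retinoic acid, differed by -0.82, Scg2 by -0.78, Chgb, a granin like it, by -0.74, Sparcl1, a matricellular protein of astrocytes, by -0.52 and Nes by -0.49. Igdcc3 differed by -0.53 and the imprinted gene Mest by -0.47. With TBBPA, Igdcc3 had 614 and 658 CPM at D12 and 70.4 and 78.6 CPM at D18. With DMSO it had 367 and 356 CPM at D12 and 61.1 and 61.7 CPM at D18.

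The change was higher with TBBPA for genes of the visceral endoderm and of secreted plasma proteins: Amn (1.52), Cubn (1.44), Cldn2 (1.29), Fgb (1.22), Apom (0.98) and Rbp4 (0.84). The carbonic anhydrase Car7 differed by 1.78, the predicted gene Gm14685 by 1.67 and the epithelial factor Bnc1 by 1.46. Podxl, a surface sialomucin, differed by 0.95, Sox17 by 0.66, Col4a1 by 0.62, the lactate transporter Slc16a1 by 0.61, Kit by 0.61 and Slc2a3 by 0.59. The claudin Cldn6 differed by 0.57, Flt1 by 0.57, Pdgfra by 0.47, the cadherin Cdh1 by 0.47 and Glul by 0.41.

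Not all of these calls held when the libraries or the scale changed. Of the genes given, 10 were recomputed under each alternative, and the calls of Amn, Cubn, Heyl and Mylk passed in each. That of Car7 was lost without D18 DMSO replicate 2 (adjusted p = 0.0524) or the D18 library with 100 nM (adjusted p = 0.0671). The call of Actc1 was lost in 4 of 8 fits that left out 1 library (adjusted p between 0.0569 and 0.0675), and that of Mybpc1 in 4 (between 0.0606 and 0.0985). The call of Tbx1 was lost in 5 (between 0.0547 and 0.109) and on log2(FPKM + 0.1) with limma (adjusted p = 0.087). Those of Gm14685 (between 0.0533 and 0.152) and Bnc1 (between 0.0675 and 0.182) were lost in 6 of 8, and on log2(FPKM + 0.1) they had adjusted p = 0.0506 for Gm14685 and 0.0637 for Bnc1. With only the libraries compared, Gm14685 had adjusted p = 0.0854. The other genes given here were not recomputed this way.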

How the results depend on the processing

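Leaving out each of the 4 compared libraries gave 4141 to 4216 changed genes with DMSO, against 6110 with all, of which 2396 to 2488 were higher and 1726 to 1778 lower, and 701 to 719 list members against 874. Without the ES libraries 8653 genes changed with DMSO (4458 higher and 4195 lower). With only the libraries compared 8608 changed (4392 higher and 4216 lower). For the TBBPA step the range was 4833 to 5720 (2545 to 3147 higher, 2262 to 2573 lower). The difference between the steps gave 83 to 333 genes when 1 of 8 libraries was left out (68 to 177 higher, 13 to 194 lower), against 309. It gave 338 higher with DESeq2, 154 lower on log2(FPKM + 1) and 153 lower on that scale with no filter. On log2(FPKM + 0.1) it gave 160 genes (130 higher and 30 lower), without the ES libraries 799 (491 and 308), and with only the libraries compared 890 (601 and 289). Over the libraries left out, 4 genes that had not passed changed sign: Csf1r ranged from -0.033 to 0.083, Hbb-bh2 from -0.66 to 0.33, Krt19 from -0.0027 to 0.10 and Sox10 from -0.17 to 0.24 (log2 change). The causes were not tested. With a replicate block 6034 genes changed with DMSO and 283 differed between the steps, and no call of a named gene changed. Same-numbered D18 and D12 libraries did not deviate together (r = 0.0214 over 16203 genes), so the numbers are not taken as pairs. A pair of libraries a day limits precision, and low genes are bounded by counting.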
